A study of Mus musculus with 6 samples.

Results

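Zinc finger genes were taken from the lists of Ikaros peaks in mouse natural killer (NK) cells. The members are the protein-coding genes that the authors placed beside a peak and whose names start with Zfp, Zbtb, Zscan, Zkscan, Zxd or Znf. The rule found 57 of the 2145 protein-coding genes in the lists, in 99 of 4809 rows. Their peaks merged into 61 of the 2526 regions, where a region joins peaks of different libraries that share at least 1 base. The rule used names and the authors' placement of peaks beside genes, so where peaks lay relative to their gene is in part set by that placement. How strong the peaks were and which libraries held them were not used by the rule.

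The series measured Ikaros, encoded by Ikzf1, by chromatin immunoprecipitation with sequencing (ChIP-seq) in NK cells from spleen, in 3 samples with an NKp46-conditional deletion of Ikzf1 (KO) and 3 wild-type (WT) samples. Cells of both genotypes were grown in IL-15 at 50 ng/ml, fixed for 10 min in 2% formaldehyde, sheared to fragments of 100 to 200 bp and precipitated with 2 µg of an antibody to Ikaros. The 3 WT peak lists were analysed, and KO libraries were not analysed here, so no value below is a difference between genotypes. Cells were expanded in culture, and the labels do not say that replicates came from separate animals, so differences between the lists may be technical.

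Ikaros is itself a zinc finger protein and a regulator of lymphocyte development, which binds DNA with a GGGAA core and brings chromatin remodelling and histone deacetylase complexes to it. Most genes with Zfp, Zbtb and related names encode C2H2 proteins, in which each finger holds a zinc ion and can contact DNA. Many add a domain that sets what they recruit: a KRAB domain binds the co-repressor Trim28, a BTB domain pairs proteins and can bind co-repressors such as Ncor1 and Bcor, and a SCAN domain joins family members. KRAB zinc finger genes lie in tandem clusters, and many silence retroelements. The names also cover proteins of other kinds, such as the CCCH proteins of the Zfp36 group, which bind AU-rich mRNAs and promote their decay.

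A region in all 3 lists lay on the promoter of 9 members, and 6 of these promoters are shown, from the strongest such region to the weakest. Each line holds the 250 bases before the gene's start, 5′ to 3′ along the gene's own strand, from RefSeq (GRCm38.p6, the same assembly as mm10). Capitals mark GGGAA or its reverse complement TTCCC. The windows are chr7:30094826-30095075 (plus strand) for Zfp260, chr6:90369244-90369493 (plus) for Zxdc, chr17:34894309-34894558 (plus) for Zbtb12, chr7:127876837-127877086 (minus) for Zfp668, chr19:12796124-12796373 (minus) for Zfp91 and chr12:76370270-76370519 (plus) for Zbtb1.
Zfp260: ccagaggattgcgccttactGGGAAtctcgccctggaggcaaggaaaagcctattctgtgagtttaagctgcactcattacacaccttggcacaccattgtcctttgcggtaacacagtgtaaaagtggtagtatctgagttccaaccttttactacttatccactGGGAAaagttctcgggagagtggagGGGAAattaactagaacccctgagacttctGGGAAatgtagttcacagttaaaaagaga
Zxdc: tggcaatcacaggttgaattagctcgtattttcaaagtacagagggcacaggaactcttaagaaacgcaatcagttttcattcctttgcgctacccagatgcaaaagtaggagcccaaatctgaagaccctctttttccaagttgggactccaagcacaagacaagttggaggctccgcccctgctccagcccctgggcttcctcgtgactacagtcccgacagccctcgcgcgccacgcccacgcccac
Zbtb12: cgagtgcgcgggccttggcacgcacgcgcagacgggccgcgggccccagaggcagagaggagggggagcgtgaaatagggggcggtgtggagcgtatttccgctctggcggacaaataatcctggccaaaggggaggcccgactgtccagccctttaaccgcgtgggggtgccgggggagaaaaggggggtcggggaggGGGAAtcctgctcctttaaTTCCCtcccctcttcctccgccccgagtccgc
Zfp668: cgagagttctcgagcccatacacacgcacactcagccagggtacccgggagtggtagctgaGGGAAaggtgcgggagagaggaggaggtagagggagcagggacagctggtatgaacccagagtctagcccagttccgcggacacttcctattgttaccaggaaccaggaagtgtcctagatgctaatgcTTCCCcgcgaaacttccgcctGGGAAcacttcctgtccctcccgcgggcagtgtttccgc
Zfp91: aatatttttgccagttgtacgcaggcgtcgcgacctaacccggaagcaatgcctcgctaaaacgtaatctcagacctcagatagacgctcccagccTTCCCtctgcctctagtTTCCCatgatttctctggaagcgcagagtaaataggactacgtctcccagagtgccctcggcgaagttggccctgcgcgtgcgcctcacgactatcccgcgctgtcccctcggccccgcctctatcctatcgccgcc
Zbtb1: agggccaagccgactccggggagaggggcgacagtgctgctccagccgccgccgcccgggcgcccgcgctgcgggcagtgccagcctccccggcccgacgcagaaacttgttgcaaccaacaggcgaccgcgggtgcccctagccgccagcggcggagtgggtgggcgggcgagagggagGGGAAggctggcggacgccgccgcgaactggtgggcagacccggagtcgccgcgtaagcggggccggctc

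The Zfp260 window held 4 matches, at positions -230, -84, -59 and -29 counted from the start, and all 250 bases lay inside its region. Zfp668 had 3 matches, Zbtb12 and Zfp91 had 2 each and Zbtb1 had 1. Zxdc had 0, although its region ranked above the 92nd percentile in every list. Of the 3 not shown, Zfp62 had 2 matches, and Zfp507 and Zfp282 had 0 in the bases before the start. A match is a description of these letters and not a binding site.

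Zinc finger peaks numbered 15 of 685 peaks in WT replicate 1, 45 of 2084 in replicate 2 and 36 of 1342 in replicate 3. They named 16, 44 and 36 genes. The lists give no read counts, so the depth of the libraries is unknown. Of 8 NK cell markers, Klrb1c had regions in all lists and Gzmb, which encodes granzyme B, had 1 in replicate 2. Of 4 T cell, 4 B cell and 3 myeloid markers, 0 had one, and a peak list does not show expression. Over all protein-coding genes of the RefSeq gene table, 9.51% had a region in any list. The upper Clopper-Pearson limits of the 0 counts were 60.2% for T cell and for B cell markers and 70.8% for myeloid markers. The marker lists are therefore too short to tell NK cell markers from those of other cells.

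Regions in all lists lay beside 14 of the 57 zinc finger genes, 24.6% (95% Clopper-Pearson interval 14.1 to 37.8), against a background of 21.7% of all protein-coding genes in the lists. Regions in 2 or more lists lay beside 23 zinc finger genes, 40.4% (27.6 to 54.2), against a background of 46.9%. Both backgrounds lay inside the intervals. The intervals describe counting error over genes or regions, which are not replicates. With 1 list left out, all remaining lists and 2 or more lists are the same 2 lists, so there is 1 count. It was 22 genes without replicate 1, whose list was the shortest, 14 without replicate 2 and 15 without replicate 3. Among peaks whose −log10 q was at least 5, the counts were 7 genes in all lists and 11 in 2 or more. The share over all protein-coding genes was not computed at these settings, so it cannot be told whether other genes changed alike.

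Counted by region, 13 of 61 zinc finger regions were in all lists (21.3%, 11.9 to 33.7), against 410 of 2091 regions of other protein-coding genes (19.6%). Exactly 2 lists held 9 zinc finger regions (14.8%, 6.98 to 26.2), against 24.0% of the other regions. A single list held 39 (63.9%, 50.6 to 75.8), against 56.4% of the others. The 39 were 1 in replicate 1, 23 in replicate 2 and 15 in replicate 3. Regions in replicate 3 alone made up 24.6% of zinc finger regions and 13.8% of the others. Where 2 or more lists held a region, the midpoints of its peaks lay 10 to 488 bp apart, with a median of 47.0 bp, and in 17 of 22 regions within 100 bp.

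**Figure D1:**
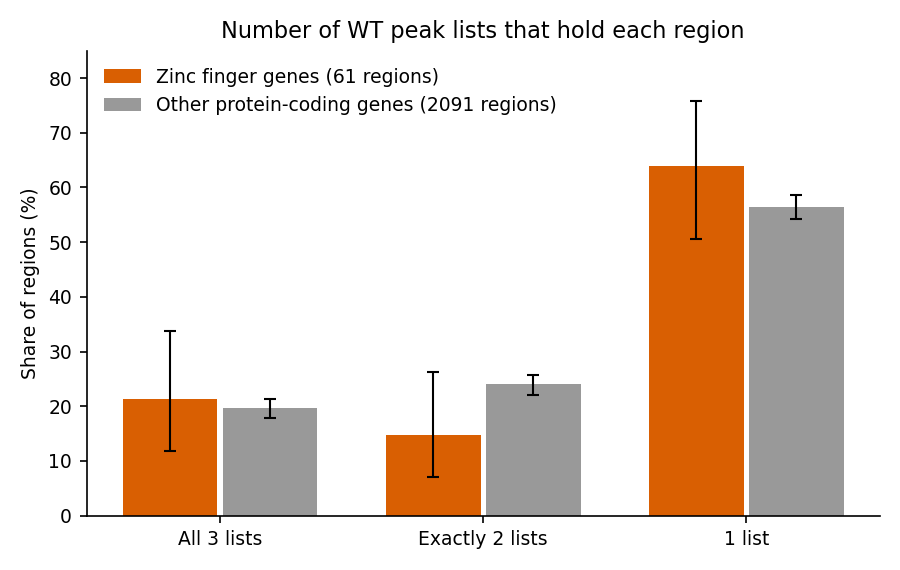
Share of regions (%) held by all 3, exactly 2 or 1 of the WT peak lists, for zinc finger genes (61 regions, orange) and other protein-coding genes (2091 regions, grey). Bars are shares and lines are 95% Clopper-Pearson intervals; 21.3% of zinc finger regions and 19.6% of the others were in all lists.

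In the full lists, the strength of zinc finger peaks was near that of other peaks in the middle of each list. Strength is the fold enrichment that the authors gave each peak, and its rank within 1 list is given as a percentile, with 100 the strongest. The median percentile of zinc finger peaks was 55.0, 47.2 and 40.9 in replicates 1, 2 and 3 (mean 47.7, SD 7.10, n = 3). Peaks of other protein-coding genes had medians of 49.7, 49.1 and 49.3 (mean 49.4, SD 0.291, n = 3). The 2 means differed by less than the SD of the zinc finger lists. With only peaks of a −log10 q of at least 5 or 10, or lists cut to equal length, the zinc finger mean was 62.2, 66.0 or 55.1. The median of other peaks was not computed in those reduced lists.

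At the strong end, 4 of 15 zinc finger peaks of replicate 1 were above the 90th percentile of that list (26.7%, against 9.86% of other peaks). The shares were 5 of 45 in replicate 2 (11.1%, against 9.50%) and 5 of 36 in replicate 3 (13.9%, against 9.36%). In each list they included the 4 regions described next, and the fifth was that of Zfp13 in replicate 2 and of Zbtb12 in replicate 3. The highest fold enrichment of a zinc finger peak was 14.4, 26.4 and 18.9 in replicates 1, 2 and 3, against 46.4, 85.2 and 70.7 for other peaks.

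The 4 strongest regions lay beside Zfp521, Zfp518b, Zfp260 and Zxdc. Zfp521, a transcriptional co-factor of blood cell progenitors and B lymphoid cells (ENSMUSG00000024420), had a region at chr18:14137545-14138075 (mm10). Its fold enrichments were 14.4, 26.4 and 18.9 in replicates 1, 2 and 3, at percentiles 97.8, 99.1 and 98.4. By the authors' distance this region lay 165 kb outside the gene, farther than that of any other zinc finger gene in 2 or more lists. Zfp518b (ENSMUSG00000046572), whose human counterpart is reported to bind the histone methyltransferase G9a, had fold enrichments of 9.99, 21.7 and 14.4 at chr5:38656674-38657174. This region also lay outside its gene, at 11.3 kb, and 27.9 kb after the start. Both strongest regions were therefore distal, and the gene they act on, if any, was not measured.

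The other 2 of the strongest 4 lay on promoters. Zfp260 (ENSMUSG00000049421), known as a transcriptional activator in heart muscle, had fold enrichments of 8.18, 14.8 and 13.7 at chr7:30094681-30095174. Its midpoint lay at -0.148 kb from the start, on the upstream side. Zxdc (ENSMUSG00000034430), whose human counterpart works with CIITA in transcription of MHC class II genes, had 8.75, 7.98 and 10.5 at chr6:90369322-90369662. That midpoint fell 2 bp before the start, and the percentiles of 94.2, 92.6 and 96.3 had an SD of 1.88.

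Zbtb12 and Zfp13 lay in the upper part of every list, and Zfp236 and Zfp507 lay nearer the middle of most lists. Zbtb12, a BTB zinc finger gene, had fold enrichments of 5.71, 5.78 and 7.57 at chr17:34894430-34894821, with the midpoint 0.0665 kb after the start. Its rows also name C2, a complement gene that neighbours it, and replicate 2 alone held a second Zbtb12 region at chr17:34887553-34887794. Zfp13 had 5.67, 7.49 and 6.19 at chr17:23592574-23592989, 6.71 kb after the start and so inside the gene rather than on its promoter. Zfp236 had 5.25, 4.72 and 6.71 at chr18:82692311-82693047, at percentiles 55.0, 49.1 and 84.3. Zfp507 had 5.12, 5.25 and 5.04 at chr7:35802910-35803190, at percentiles 50.9, 65.9 and 51.4. All 4 were in every list, and their percentiles ran from 49.1 to 90.8.

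Zfp668 and Zfp646 shared 1 region at chr7:127876038-127876999, with fold enrichments of 5.44, 5.50 and 6.24 and a mean percentile of 70.8, between Zfp13 (79.1) and Zfp236 (62.8). The 2 genes are 78 bp apart, and the human counterpart of Zfp668 takes part in the DNA damage response. One region between them cannot be told apart as belonging to either gene. It was the only region whose rows named 2 zinc finger genes.

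Zfp91 showed the widest spread among regions in all lists. Its human counterpart is a ubiquitin ligase that, like Ikaros, is degraded in cells given thalidomide analogues. At chr19:12795657-12796882 it had fold enrichments of 4.82, 4.39 and 7.11, at percentiles 39.4, 37.6 and 88.2. Replicates 1 and 2 thus put it below the middle of their lists and replicate 3 put it near the top. Midpoints of its peaks lay up to 488 bp apart, the widest range among regions in 2 or more lists. The lists may therefore not measure the same site. The region also overlapped the promoter window of Lpxn, which encodes the adaptor leupaxin, and its midpoint was nearer to that start, at 76 bp, than to the start of Zfp91, from which it lay at -0.146 kb.

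At the weak end, Zbtb1 and Zfp62 were in every list although their enrichment was low. Zbtb1, a BTB zinc finger gene needed for lymphoid development, had fold enrichments of 3.84, 3.48 and 3.98 at chr12:76370081-76371277, at percentiles 6.86, 3.84 and 13.5. Zfp62 had 4.02, 3.71 and 3.87 at chr11:49203365-49204038, at percentiles 10.9, 9.74 and 9.46. Zfp282, whose human counterpart was described as a repressor of the HTLV-1 promoter, came next by mean percentile among genes in all lists. It had 4.54, 4.66 and 4.70 at chr6:47877438-47877910, at percentiles 26.9, 47.2 and 39.4, nearer the middle of the lists. The Zbtb1 and Zfp62 promoters were thus listed in all libraries with peaks at or below the 13.5 percentile.

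A region in exactly 2 lists was found for 9 genes. Zfp3 was the strongest, with 6.24 and 6.75 in replicates 2 and 3 at chr11:70764348-70764667, at percentiles 83.4 and 84.7. Zbtb14, known as a repressor of Myc, had 4.07 and 4.80 in the same replicates at chr17:69382624-69384239. Zfp36l2, a CCCH gene of the Zfp36 group, had 4.75 and 4.79 in replicates 1 and 2 at chr17:84186951-84187287, and a second region in replicate 2 alone. The others, all in replicates 2 and 3, were Zfp592, Zfp664, Zfp692, Zfp652, Zfp715 and Zfp444. Zfp444 ranked at the 59.6 percentile in replicate 2 and at 9.24 in replicate 3, so its rank was not stable between libraries. Rows of the Zfp652 region also name Zfp652os, an antisense gene.

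**Figure D2:**
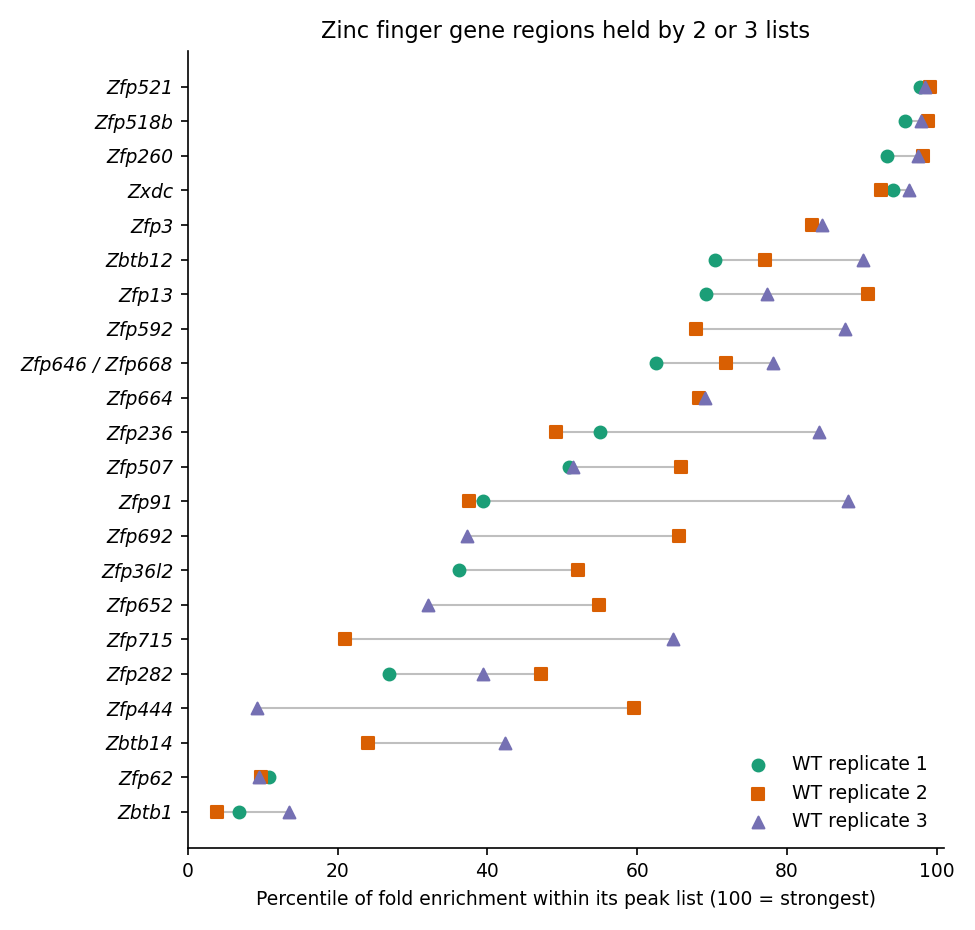
Percentile of fold enrichment within its own peak list (100 = strongest) for each zinc finger region held by 2 or 3 WT lists, with 1 symbol per replicate and a grey line over their range. Zfp521, Zfp518b, Zfp260 and Zxdc lie above 92 in every list, Zfp62 and Zbtb1 lie below 14, and Zfp91 runs from 37.6 to 88.2.

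Regions in 1 list stayed below the 75th percentile. The 23 of replicate 2 had fold enrichments of 3.45 to 5.63 (median 4.36), at percentiles 3.12 to 74.7 (median 36.3). Those of replicate 3 had 3.76 to 5.85 (median 4.18), at percentiles 5.89 to 70.9 (median 21.7). Replicate 1 had 1, beside Zfp87, with a fold enrichment of 4.26 at the 16.9 percentile. Among them were promoter regions of Zfp143, a factor of chromatin loops, at a fold enrichment of 4.49, and of Zfp318, needed for IgD expression in B cells, at 4.80. Zbtb33, which encodes the methyl-CpG binding protein Kaiso, had 3.92 and Zbtb24, mutated in a human immunodeficiency, had 4.51, all 4 in replicate 2. Zfp217 and Zfp219 each had 1 region in replicate 2 and another in replicate 3 that did not overlap, so neither counts as shared.

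Regions were then counted over each family. Of the 471 zinc finger names in the RefSeq gene table, 57 had a region in any list (12.1%, 9.30 to 15.4), against a background of 9.51% of all protein-coding genes in that table. In 2 or more lists the count was 23 (4.88%, 3.12 to 7.24), against 4.43%, so it lay within counting error of the background. Among Zbtb genes, 10 of 41 had a region in any list (24.4%, 12.4 to 40.3), against 45 of 400 Zfp genes (11.2%, 8.33 to 14.8). Zbtb genes in 2 or more lists numbered 3 (7.32%, 1.54 to 19.9) and Zfp genes 19 (4.75%, 2.88 to 7.32), with overlapping intervals. Zxdc was 1 of 2 Zxd genes and Zkscan16 1 of 11 Zkscan genes, in 1 list. Of 16 Zscan genes 0 had a region, and the upper limit of that share is 20.6%.

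Zinc finger genes known from lymphocytes were looked up whether or not they had a peak. Zbtb1 was in all lists and Zfp36l2 in 2. Zbtb20, which supports plasma cells, had 1 region in replicate 3 at the 70.9 percentile, at -340 kb from the nearest listed start but inside the gene by the authors' distance. Zbtb46, a marker of classical dendritic cells, had 1 in replicate 3 at 6.78. No peak was listed for Zbtb7b (ThPOK, of CD4 T cells), Zbtb16 (PLZF, of innate-like T cells), Zbtb32 (of proliferating NK cells in viral infection), Zbtb7a (LRF), Zbtb17 (Miz-1), Zfpm1 (FOG1), Zfp36 or Zfp36l1. Without read counts, a gene that is not listed cannot be told from one below the calling threshold. Peak numbers ran to 726, 2134 and 1384 in replicates 1, 2 and 3, although 685, 2084 and 1342 peaks were listed. Some numbered peaks are therefore absent, and a peak beside an unlisted gene could be among them.

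The authors' own mark for transcription factor genes was on 17 of 57 zinc finger genes (29.8%, 18.4 to 43.4), against 105 of 2088 other genes (5.03%). The other 40 zinc finger genes, among them Zbtb1, Zbtb12, Zfp521 and Zfp518b, did not carry it. Regions in 2 or more lists lay beside 6 of the 17 marked genes (35.3%) and 17 of the 40 unmarked ones (42.5%).

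Where a start of the gene was listed, zinc finger regions lay mostly within 1 kb of it, as did regions of other genes. A promoter window here is the 250 bases before to 50 after a start, and 48 of the 61 regions belong to a gene with a window in the table. Of these, 27 overlapped a window of their gene (56.2%, 41.2 to 70.5), against 865 of 1649 regions of other genes (52.5%). Midpoints lay within 1 kb of the start for 35 (72.9%, 58.2 to 84.7), against 62.0% of the others. Both values of other genes lay inside the intervals. The median distance was 218 bp, against 322 bp. In 45 of 48 regions the nearest listed start of any gene was that of the zinc finger gene (93.8%), against 91.4% for other genes. The authors placed peaks beside genes, so both shares depend in part on that placement. Only 45 of the 57 zinc finger genes have a window in the table, so a closer promoter missing from it cannot be seen.

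By the number of lists, the share that overlapped a promoter window was 9 of 11 in all lists (81.8%, 48.2 to 97.7), against 198 of 319 regions of other genes (62.1%), and 14 of 19 in 2 or more lists (73.7%, 48.8 to 90.9), against 60.1%. In single lists it was 13 of 29 (44.8%, 26.4 to 64.3), against 46.4%. The intervals overlapped, and the values of other genes lay inside them. Midpoints within 1 kb of the start showed no such step, with 14 of 19 in 2 or more lists (73.7%) and 21 of 29 in 1 list (72.4%). A region spans all of its joined peaks, so regions in more lists can be wider. The part of width in the overlap was not tested. Midpoints fell on both sides, 21 before the start and 27 at or after it, with 31 within 500 bp and 8 beyond 10 kb.

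Strength was set against position for the 19 shared regions whose gene has a window. The 14 shared regions on a promoter had mean percentiles of 8.06 to 96.4, with a median of 55.6. The 5 away from it, beside Zfp13, Zfp518b, Zfp652, Zfp664 and Zfp692, had 43.5 to 97.5, with a median of 68.7. The 2 ranges overlapped. The 3 other shared regions, beside Zfp521, Zfp236 and Zfp36l2, are not in these counts, and that of Zfp521, outside its gene, had the highest mean percentile of all, 98.4. By the authors' distance, 51 of 61 regions overlapped the gene and 10 lay outside, by up to 189 kb, the last being that of Zfp608.

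**Figure D3:**
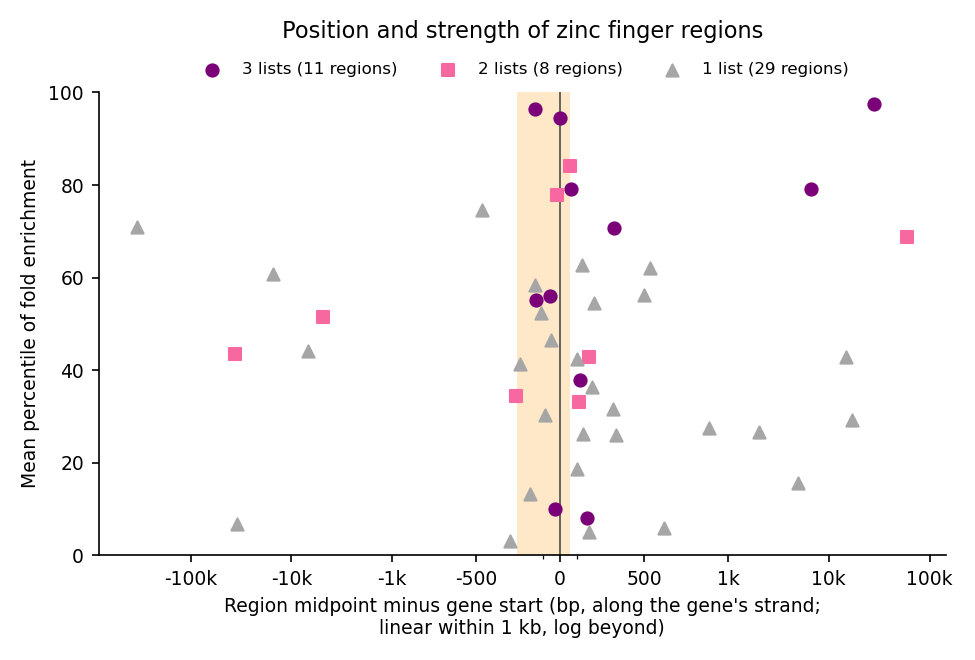
Mean percentile of fold enrichment (y axis) against region midpoint minus gene start in bp (x axis, along the gene's strand, linear within 1 kb and log beyond) for 48 zinc finger regions, by the number of WT lists that held them. The shaded band is the promoter window of 250 bp before to 50 bp after the start; 31 midpoints lie within 500 bp of the start, over the whole range of percentiles.

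Zinc finger genes without a zinc finger neighbour had a region more often than those in dense clusters. With no other zinc finger gene within 200 kb, 33 of 183 had a region in any list (18.0%, 12.8 to 24.4). With 1 to 4 neighbours it was 17 of 171 (9.94%, 5.90 to 15.4), and with 5 or more it was 7 of 117 (5.98%, 2.44 to 11.9). Over all protein-coding genes of the RefSeq gene table the share was 9.51%. That value lay below the interval for no neighbour and inside the other intervals. The difference between no neighbour and 5 or more was 12.0 percentage points (Newcombe interval 4.42 to 19.0). In 2 or more lists the shares were 7.10% (3.84 to 11.8), 4.09% (1.66 to 8.25) and 2.56% (0.532 to 7.31), in the same order but with overlapping intervals. The share over all protein-coding genes, 4.43%, lay inside each of these intervals. The difference in any list was 7.68 points without replicate 3, 5.09 points with lists of equal length, 5.70 points among peaks whose −log10 q was at least 5 and 1.88 points where it was at least 10.

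Base composition and gene length moved with the neighbours. The median GC content of promoter windows was 59.7% with no neighbour, 53.7% with 1 to 4 and 53.3% with 5 or more, and the median number of CpGs per window was 18.0, 11.5 and 10.0. Median gene lengths were 21.0, 17.2 and 15.6 kb. Windows that a zinc finger region overlapped had a median GC content of 61.7% with 24.0 CpGs (31 windows), against 55.3% with 13.0 for the 449 zinc finger windows with no region. Over all protein-coding genes, windows with a region had 66.0%, against 56.3% for all windows. The part of GC content, gene length or unique mapping of reads in the difference was not tested.

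**Figure D4:**
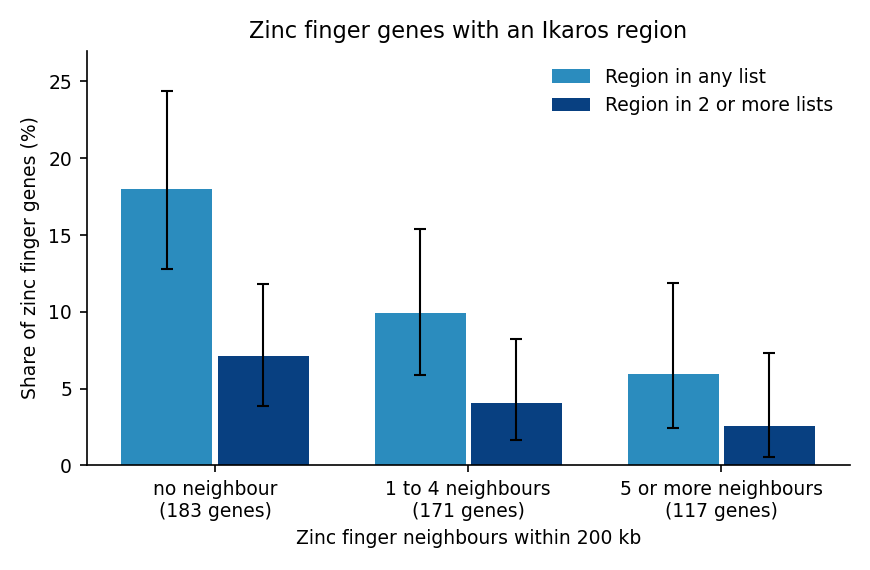
Share of zinc finger genes (%) with an Ikaros region in any WT list (light blue) or in 2 or more lists (dark blue), by the number of other zinc finger genes within 200 kb. Bars are shares of 183, 171 and 117 genes and lines are 95% Clopper-Pearson intervals; the share in any list is 18.0%, 9.94% and 5.98%. Over all protein-coding genes, 9.51% had a region in any list and 4.43% in 2 or more.

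By chromosome, 15 of 104 zinc finger genes on chromosome 7 had a region in any list (14.4%, against 9.51% of all protein-coding genes over the genome) and 7 in 2 or more. On chromosome 11 it was 4 of 24 (16.7%), all in 2 or more, and on chromosome 17 it was 5 of 51 (9.80%), with 4 in 2 or more. The highest shares, over few genes, were 2 of 5 on chromosome 19 (40.0%) and 5 of 13 on chromosome 18 (38.5%). Chromosome 13 had 1 of 42 (2.38%) and chromosome 9 had 0 of 24. Chromosomes 2 (3 of 34) and 4 (5 of 36) had 0 in 2 or more lists. The median number of zinc finger neighbours was 5.00 on chromosomes 7 and 13, 4.00 on 17, 3.00 on 9 and 0.500 on 11. On chromosome 7 the members included 4 adjacent pairs with no other zinc finger gene between them: Zfp787 and Zfp444 (13.1 kb apart), Zfp260 and Zfp382 (14.2 kb), Zfp658 and Zfp719 (3.42 kb) and Zfp668 and Zfp646. Apart from Zfp668 and Zfp646, each pair had separate regions. Strength was not shared within the Zfp260 and Zfp382 pair, since Zfp382 had a fold enrichment of 3.54 in replicate 2 alone, at the 5.04 percentile.

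The GGGAA core, searched on both strands of the whole windows, was common in promoters. It stood in 22 of 31 zinc finger windows that a zinc finger region overlapped (71.0%, 52.0 to 85.8). The share was 13 of 16 where the region was in 2 or more lists (81.2%, 54.4 to 96.0) and 297 of 449 zinc finger windows with no region (66.1%, 61.6 to 70.5). Over all protein-coding genes it was 790 of 1151 windows with a region (68.6%) and 13396 of all 21262 windows (63.0%). These values lay inside the intervals for zinc finger windows with a region. The longer TGGGAA stood in 32.3% of the 31 windows, 34.3% of zinc finger windows with no region, 22.0% of all windows with a region and 24.5% of all windows. GGAAG, which can overlap GGGAA by sharing GGAA, stood in 80.6% of the 31 windows, 359 of the 449 with no region, 81.3% of all windows with a region and 72.4% of all windows.

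Other genes of the same pathways were counted against the shares over all protein-coding genes, 9.51% in any list and 4.43% in 2 or more. Of 23 genes of KRAB co-repression, 3 had a region in any list (13.0%) and 1 in 2 or more (4.35%, 0.110 to 21.9). This was Cbx3, which encodes heterochromatin protein HP1 gamma, at 5.21 in replicate 2 and 6.58 in replicate 3. Chd4, of the NuRD complex, and Mphosph8, of the HUSH complex, had 1 each in replicate 2. Of 15 genes of BTB co-repression, 3 had a region in any list (20.0%) and 1 in 2 or more (6.67%, 0.169 to 31.9). This was Hdac3, the deacetylase of the Ncor1 complex, in all lists with 5.70, 5.55 and 5.40. Bcor was in replicate 2 alone, and Ctbp2 had separate regions in replicates 1 and 2.

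C2H2 genes under other names were counted beside them. A region in 2 or more lists lay beside 4.88% of the 471 zinc finger names (3.12 to 7.24) and 11 of 93 other C2H2 genes (11.8%, 6.05 to 20.2), with overlapping intervals, against 4.43% of all protein-coding genes. In any list the shares were 12.1% and 22.6%, the last being 21 of the 93, against 9.51%. The share of the 93 in 2 or more lists had an interval above the value over all genes. In all lists were Klf10, Klf13, Sp4, Egr1, Prdm15, Hivep1 and Hivep3. Hivep3 had fold enrichments of 6.54, 6.91 and 5.90 and Prdm15 had 5.99, 5.87 and 9.37, and Klf10, a factor induced by TGF-beta, had 2 regions in all lists. Egr1, an immediate early factor, had 4.54, 4.39 and 4.08. In 2 lists were Klf16, Rest, Maz and Hic1. This list was drawn up with earlier results of these data known, and the difference was not tested.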

How the data were processed

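ChIP-seq peak lists of 3 WT libraries were used. The submitters' processing notes name MACS2, Subread, edgeR 3.20.0, SAMtools, Picard and the build mm10, without roles. The control library, the peak threshold and the annotation are not given in the sources used here. The lowest −log10 q among listed peaks was 1.15, 1.06 and 1.12 in replicates 1, 2 and 3. Per the labels' protocols, some of each lysate was kept as input. Every peak carries the authors' score, fold enrichment (a linear ratio), −log10 p and −log10 q, per the file headers, and its gene, distance, biotype and transcription factor mark.

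Rows were reduced to peaks, and peaks of different lists with 1 base or more in common became 1 region. Fold enrichment was ranked within each list. Replicate 3 is named by its sample title, while its description and peak names carry the number 4. Of the 57 zinc finger names, 57 matched the RefSeq gene table (GRCm38.p6) and 45 (78.9%) had a promoter window; of all 2145 names, 2083 (97.1%) matched. Neighbours were counted from gene ends within 200 kb, and no test was run. Members and gene lists were chosen with earlier results of these data known. Named genes were the 12 highest and 4 lowest by mean percentile among those in all lists, the highest in 2 lists, Zbtb, Zscan, Zkscan, Zxd and Znf genes in 2 or more lists, genes with several or shared regions, and a list of lymphocyte genes, of which 1 is not reported here. Other genes were named after their values were seen. Merging and ranking were tested on simulated data. Alternatives were the peak threshold, list length, overlap, gene assignment, motif and each replicate left out. Software was matplotlib 3.10.9, pandas 2.3.3, SciPy 1.17.1, NumPy 2.4.6 and Python 3.11.15.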

Additional observations from a re-analysis of the deposited data

How the results depend on the processing

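No paired analysis was possible because only the WT libraries were analysed and no test was run. Of 57 values under alternatives, 39 stayed within a tolerance and 18 moved beyond it. The 57 hold the gene count without each replicate under 2 names, in all remaining lists and in 2 or more. The tolerance was 1.5 times for counts and the SD between lists or the 95% interval for other values. The interval of the difference by neighbours was wide (4.42 to 19.0 points around 12.0), so values of 5.09 points with lists of equal length and 5.70 points at a −log10 q of 5 fell within it. Raising the peak threshold to a −log10 q of 5 or of 10 left 7 or 4 zinc finger genes in all lists (reported 14) and 11 or 5 in 2 or more (reported 23). Lists cut to equal length gave 8 and 15. These settings hold fewer peaks by construction. The share of regions in 2 or more lists was 55.6%, 62.5% and 63.6% under them (reported 36.1%), and the mean of the median percentiles, ranked within the reduced lists, was 62.2, 66.0 and 55.1 (reported 47.7). Other protein-coding genes were not counted under these settings or with a replicate left out, so it cannot be told whether they moved alike. At a −log10 q of 10, the difference by neighbours was 1.88 points (reported 12.0). TGGGAA stood in 28.6% of member windows (GGGAA in 64.3%), and it can only be the rarer, since it contains GGGAA. Of regions in all lists, 81.8% overlapped a promoter window (56.2% in any list). The cause of the other moves was not tested.

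Leaving out each replicate left 2 lists, so the counts in all remaining lists and in 2 or more are the same, 14 to 22 genes. The share of regions was 30.4% to 35.0% and the median percentiles were 44.0 to 51.1. The promoter share was 51.7% to 68.4% and the difference by neighbours 7.68 to 12.9 points. Limits of 100 and 500 kb for neighbours (9.37 and 11.7 points), the other alternatives for neighbours, and counting names without overlap (14 and 25 genes) were added after the data were seen. The planned restriction to genes with a C2H2 pattern in their protein was not run, since no protein sequences were used here. Without read counts in the lists, no limit from depth could be set.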
